A study of Mus musculus with 8 samples.

Results

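The genes described here are 40 genes of mitosis and the spindle: the kinases, cyclins and phosphatases of mitotic entry, the spindle checkpoint, the anaphase-promoting complex, the kinetochore, spindle motors, the central spindle and the chromosome scaffold enzyme Top2a. They were chosen by name and function, with no measured value in the rule, but earlier results of these data were known when they were chosen. Each was found as 1 entry among the 20461 distinct gene identifiers of the deposited tables. Poly(A)-selected RNA of mouse embryonic stem cells was sequenced with paired reads to compare cells with and without HTATSF1, an RNA-binding protein. The cells came from tatsf1 flox/flox CreERT2 mice, so in all 4 groups the Htatsf1 gene carried sites for Cre recombinase and the cells carried a Cre fused to a tamoxifen-responsive receptor domain. Control cells had received ethanol for 48 h or 72 h, and the other cells tamoxifen, which starts the deletion, for the same times. Each of the 4 groups had 2 libraries. No group received tamoxifen without those sites or without the Cre. Effects of tamoxifen, of active Cre and of the loss of HTATSF1 therefore cannot be told apart. Mouse embryonic fibroblasts served as a feeder layer in every group, and such bulk RNA can hold both cell types. The promoter that drives CreERT2, the number of lines and the origin of paired libraries (separate cultures or 1 culture) were not given in the sources used here. The p-values therefore measure a spread between libraries that may be technical.

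During mitosis the kinase Cdk1, bound to cyclin B, drives chromosome condensation and spindle assembly, and the Polo and Aurora kinases act beside it. Unattached kinetochores hold the cell in metaphase through the checkpoint proteins until Cdc20 activates the anaphase-promoting complex, which marks cyclin B and securin for destruction. Most genes of this program are transcribed late in the cell cycle, through promoters with a cell cycle homology region (CHR) and CCAAT boxes, and pluripotent stem cells, which divide quickly, transcribe them at high levels.

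The promoters were read because these elements are a feature, apart from function, that many but not all of the genes have in common. RefSeq promoters (GRCm38.p6) running from 250 bases before to 50 bases after the start site, 300 bases in all, were found for 33 of the 40 genes. Those of Aurkb, Ccna2, Cdc25c, Incenp, Kif20a, Spc24 and Tpx2 were not in the table used here. The letters searched on both strands were TTTGAA for the CHR, CCAAT for the box bound by NF-Y, and TTTNNCGC for an E2F-type site, and matches that overlap each other were each counted. The 8 promoters below have both a CHR and a CCAAT match and belong to genes whose values are given in full. They are shown 5′ to 3′ on the strand of the gene, with CHR and CCAAT matches of either strand in capitals.
Aurka (chr2:172370521-172370820, minus strand): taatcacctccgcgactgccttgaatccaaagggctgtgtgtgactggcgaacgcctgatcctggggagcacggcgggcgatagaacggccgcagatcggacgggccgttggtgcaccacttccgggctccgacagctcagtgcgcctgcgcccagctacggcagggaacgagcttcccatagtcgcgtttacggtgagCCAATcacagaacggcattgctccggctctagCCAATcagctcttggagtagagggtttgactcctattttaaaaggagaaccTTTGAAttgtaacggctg
Bub1b (chr2:118597961-118598260, plus strand): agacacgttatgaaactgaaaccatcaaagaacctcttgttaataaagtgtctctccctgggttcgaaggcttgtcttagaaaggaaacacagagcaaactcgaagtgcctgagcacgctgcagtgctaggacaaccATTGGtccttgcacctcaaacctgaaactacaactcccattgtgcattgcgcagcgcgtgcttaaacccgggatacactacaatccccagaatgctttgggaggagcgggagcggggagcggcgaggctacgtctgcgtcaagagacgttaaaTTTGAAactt
Cdc20 (chr4:118437294-118437593, minus strand): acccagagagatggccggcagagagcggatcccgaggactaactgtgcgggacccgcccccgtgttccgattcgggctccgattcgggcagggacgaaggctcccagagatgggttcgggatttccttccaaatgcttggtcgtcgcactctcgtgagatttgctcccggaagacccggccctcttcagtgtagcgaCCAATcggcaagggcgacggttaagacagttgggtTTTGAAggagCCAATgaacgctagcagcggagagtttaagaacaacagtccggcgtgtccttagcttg
Cdk1 (chr10:69352863-69353162, minus strand): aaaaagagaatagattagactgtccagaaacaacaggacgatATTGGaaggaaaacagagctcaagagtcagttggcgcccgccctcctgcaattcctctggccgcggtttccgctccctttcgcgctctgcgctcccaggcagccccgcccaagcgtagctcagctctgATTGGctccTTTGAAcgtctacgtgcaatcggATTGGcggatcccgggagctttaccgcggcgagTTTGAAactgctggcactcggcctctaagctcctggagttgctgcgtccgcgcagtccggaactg
Cenpa (chr5:30666636-30666935, plus strand): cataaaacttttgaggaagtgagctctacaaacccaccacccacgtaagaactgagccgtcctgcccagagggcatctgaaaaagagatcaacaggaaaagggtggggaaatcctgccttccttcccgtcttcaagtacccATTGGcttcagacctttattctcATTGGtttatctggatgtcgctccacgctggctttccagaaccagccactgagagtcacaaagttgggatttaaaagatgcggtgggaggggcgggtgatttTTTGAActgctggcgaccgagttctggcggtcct
Kif11 (chr19:37376132-37376431, plus strand): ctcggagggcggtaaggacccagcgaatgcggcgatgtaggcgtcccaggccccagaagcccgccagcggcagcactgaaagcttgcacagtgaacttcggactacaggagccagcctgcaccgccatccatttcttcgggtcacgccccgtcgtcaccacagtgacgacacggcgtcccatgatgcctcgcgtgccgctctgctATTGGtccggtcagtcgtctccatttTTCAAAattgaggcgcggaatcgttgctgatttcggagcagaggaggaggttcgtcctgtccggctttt
Kif23 (chr9:61946750-61947049, minus strand): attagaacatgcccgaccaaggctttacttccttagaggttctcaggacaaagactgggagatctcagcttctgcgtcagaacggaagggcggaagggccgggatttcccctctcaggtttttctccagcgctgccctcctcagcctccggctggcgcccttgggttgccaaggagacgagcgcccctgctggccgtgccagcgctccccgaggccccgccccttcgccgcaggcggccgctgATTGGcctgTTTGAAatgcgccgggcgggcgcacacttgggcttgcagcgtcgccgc
Plk1 (chr7:122159185-122159484, plus strand): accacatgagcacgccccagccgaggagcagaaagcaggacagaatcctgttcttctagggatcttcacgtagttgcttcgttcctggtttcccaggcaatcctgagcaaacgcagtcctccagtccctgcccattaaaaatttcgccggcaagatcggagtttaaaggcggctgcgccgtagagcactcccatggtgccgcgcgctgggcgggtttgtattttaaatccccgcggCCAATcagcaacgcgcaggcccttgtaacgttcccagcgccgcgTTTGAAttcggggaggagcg

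All 8 of these promoters held CHR letters within 50 bases of the start site and 1 to 3 CCAAT matches in the window. Cdk1 held 2 CHR and 3 CCAAT matches, and in Kif11 both elements were on the opposite strand. Over the 33 promoters, 23 (69.7%) held TTTGAA, against 18.1% of all 27025 promoters of the same length and 16.5% of the 17491 of protein-coding genes. CCAAT was in 25 (75.8%), against 37.9% of all promoters, and at least 2 copies were in 17 (51.5%), against 12.2%. Both elements were present in 20 (60.6%), against 7.12% of all promoters and 6.68% of the protein-coding ones. A CHR match within 50 bases of the start was found in 22 of the 33 (66.7%), against 4.92% of all promoters. The E2F-type letters were in 4 (12.1%), against 5.27%. The promoters of Birc5, Mad2l1, Nuf2 and Plk4 held none of the 3 motifs in this window. These are counts of letters and not of bound sites, and no test was run on them.

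**Figure D1:**
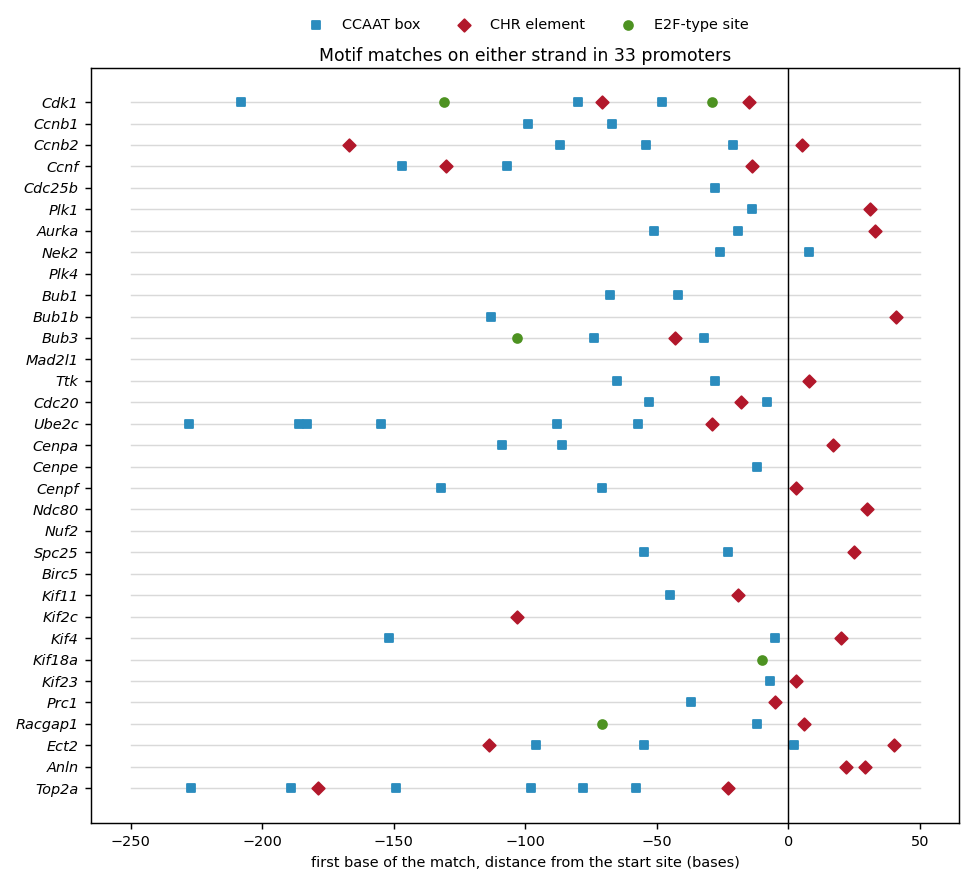
Motif matches in the 33 promoters of mitosis and spindle genes, one gene per line, with the distance from the start site in bases on the horizontal axis. Squares mark CCAAT boxes, diamonds CHR elements and circles E2F-type letters; 22 of the 33 promoters have a diamond within 50 bases of the start.

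Each library table holds FPKM, which are fragments scaled to the length of the transcript and to the size of the library. The targeted gene was lower in both tamoxifen groups: Htatsf1 was at 23.0 and 21.7 FPKM in ethanol and 4.13 and 3.78 FPKM in tamoxifen at 48 h, and at 22.8 and 22.7 against 4.12 and 4.63 FPKM at 72 h. The depth implied by the confidence bounds of the tables ran from 8.99 to 16.8 M fragments per library, and libraries of a group correlated at 0.9951 to 0.9969 over log2(FPKM + 1). At this depth the thinnest value of the 40 genes, in Cdc25c, rested on 129 fragments, and Top2a reached 18942. A set of 30 fibroblast markers was present throughout, with no marker at 0 in any library. Its summed level was 1031 to 1082 FPKM in ethanol and 1474 to 1501 in tamoxifen at 48 h, and 1071 to 1114 against 1997 to 2135 at 72 h. A set of 23 stem cell markers, of which likewise none was at 0, summed to 4993 to 5050 FPKM in ethanol and 4773 to 4848 in tamoxifen at 48 h, and to 5494 to 5635 against 4464 to 4849 at 72 h.

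All 40 mitosis genes were measured well above the limit for testing, with at least 1 FPKM in all 8 libraries. Their summed level was 2358 and 2357 FPKM in ethanol and 2267 and 2225 in tamoxifen at 48 h, and 2499 and 2513 against 2211 and 2299 at 72 h. The tamoxifen sums lay below the ethanol sums at both times, and the gap was wider at 72 h. In ethanol at 48 h the highest mean levels were those of Ube2c (214 FPKM), the conjugating enzyme that works with the anaphase-promoting complex, Ccnb1 (193), Top2a (174) and Cdc20 (169). The lowest were those of the phosphatases Cdc25b (7.96 FPKM) and Cdc25c (9.74), which remove the inhibitory phosphates of Cdk1. Entries of Ccna2, Cdc20 and Kif20a overlap other genes, and pseudogenes of Ccnb1, Ccnb2 and Kif4 are annotated; how shared reads and strand were treated is not given in the sources used here, so these 6 genes are less certain.

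**Figure D2:**
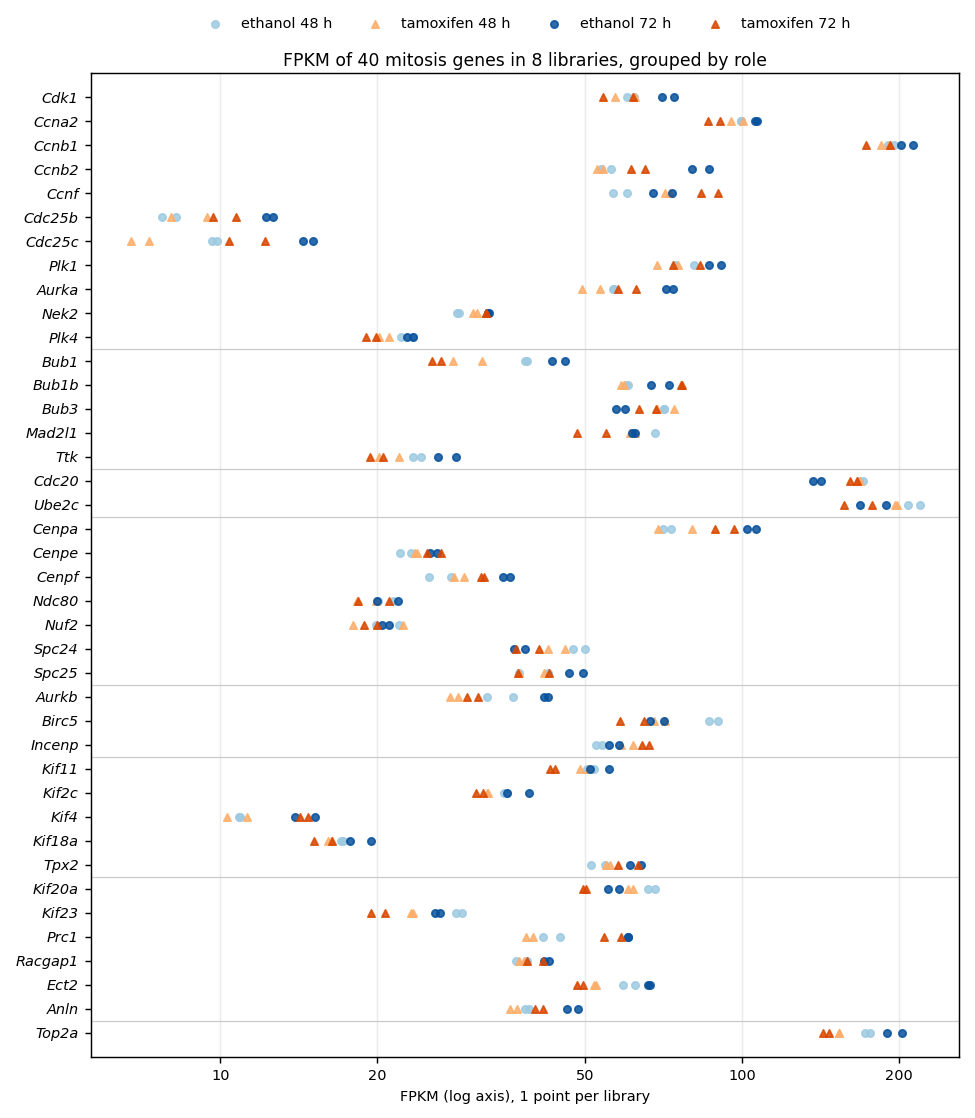
FPKM of the 40 genes on a log axis, 1 point per library, circles for ethanol and triangles for tamoxifen, light at 48 h and dark at 72 h, with lines between the functional groups. The dark triangles of Bub1 (25.4 and 26.5 FPKM) lie farthest to the left of their dark circles (43.3 and 45.8).

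After 48 h of tamoxifen few of these genes had moved. With 2-sided limma tests on log2(FPKM + 1), adjusted by Benjamini-Hochberg over 11867 genes and called under 0.05, 7 of the 40 fell (17.5%) and 1 rose (2.5%), while 4.47% of all genes tested fell and 7.88% rose. The genes that fell were Cdc25c, Bub1, Birc5, Kif23, Aurkb, Ect2 and Top2a, and Ccnf rose. The median change of the 40 was -0.06 log2 units, against 0.02 over all genes tested. Both tamoxifen libraries lay below both ethanol libraries for 19 of the 40 and above them for 6, where 26.1% and 32.7% of all genes tested did so. Every call at 48 h was lost without some of the 4 libraries of that time. Without ethanol replicate 1 no member fell, without ethanol replicate 2 or tamoxifen replicate 1 only 1 did, and without tamoxifen replicate 2 only 2 did. The adjusted p over these and the other alternatives reached 0.0614 for Bub1, 0.0743 for Cdc25c, 0.0753 for Birc5, 0.0882 for Kif23, 0.111 for Ccnf, 0.163 for Aurkb, 0.168 for Ect2 and 0.229 for Top2a. In the authors' deposited table for 48 h, 6 of the 40 fell and 1 rose, where 5.31% and 6.62% of all its genes did; it called 6 of the same 7 genes, with Aurkb at an adjusted p of 0.0525.

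After 72 h of tamoxifen, 21 of the 40 fell (52.5%) and 4 rose (10%), against 18.5% and 20.1% of all genes tested. Bub1, Aurkb, Top2a, Ttk and Ect2 fell the most, and Ccnf, Cdc20, Incenp and Bub3 rose. The median change of the 40 was -0.18 log2 units, against -0.01 over all genes tested. Both tamoxifen libraries lay below both ethanol libraries for 29 genes and above them for 5, against 34.5% and 35.2% of all genes tested. Of the 7 genes that fell at 48 h, 6 fell again at 72 h, and the exception was Birc5. By role, 8 of 11 entry regulators fell and 1 rose, 3 of 5 checkpoint genes fell and 1 rose, and 1 of 7 kinetochore genes fell. Among the others, 3 of 5 spindle motors and partners fell, 4 of 6 central spindle genes fell, and the 3 chromosomal passengers split into 1 that fell, 1 that rose and 1 that was not called.

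**Figure D3:**
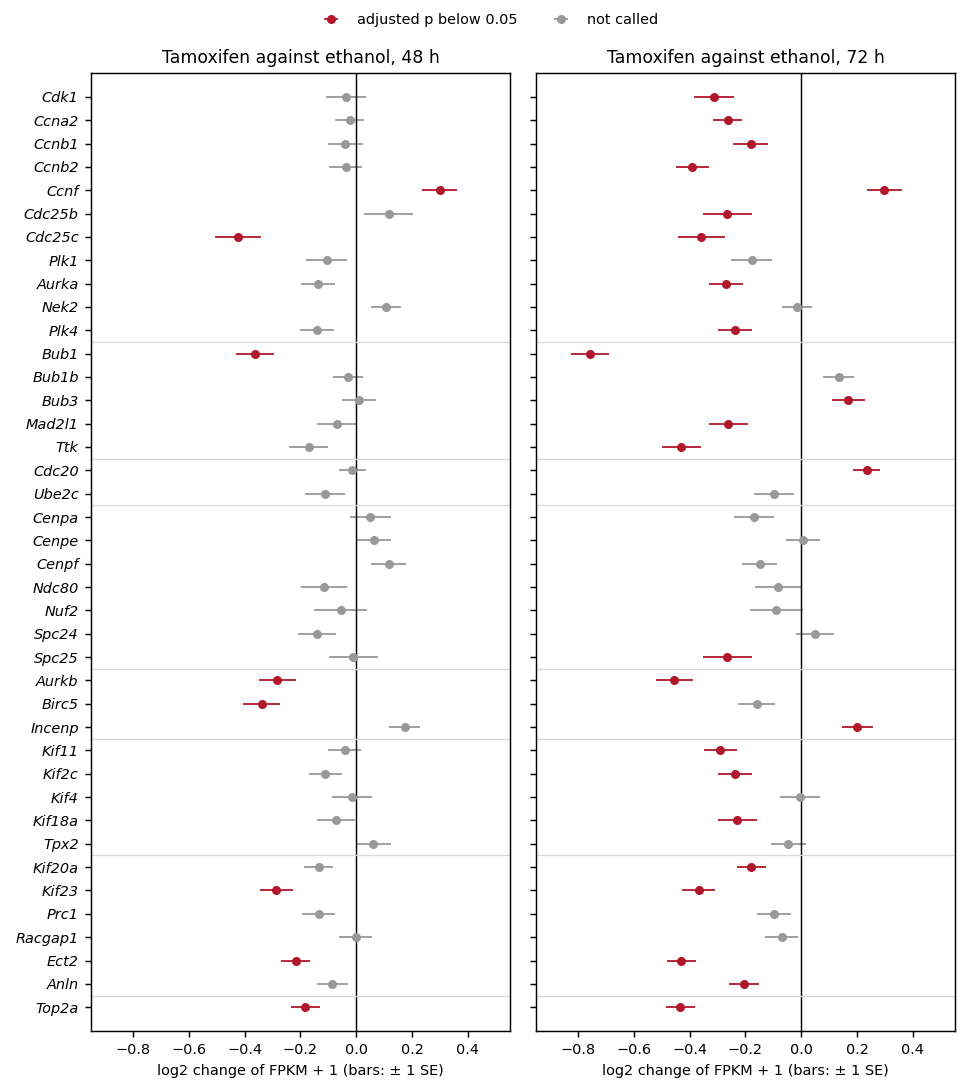
Log2 change of FPKM + 1, tamoxifen against ethanol, with bars of 1 SE, for the 40 genes in order of role at 48 h (left) and 72 h (right); red points have an adjusted p under 0.05. At 72 h 21 red points lie left of 0 and 4 (Ccnf, Bub3, Cdc20 and Incenp) lie right of it.

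The calls at 72 h differed in how firmly they stood. Of the 25, 12 passed under each of 16 alternative settings: Aurka, Aurkb, Bub1, Ccna2, Ccnb2, Ect2, Kif11, Kif23, Top2a and Ttk, which fell, and Ccnf and Cdc20, which rose. Cdk1 missed the threshold without ethanol 72 h replicate 2 (adjusted p = 0.0503), and Cdc25c without tamoxifen 72 h replicate 1 (0.0598). The other 11 (Anln, Bub3, Ccnb1, Cdc25b, Incenp, Kif18a, Kif20a, Kif2c, Mad2l1, Plk4 and Spc25) each missed it without at least 1 of the 4 libraries of 72 h, with adjusted p reaching from 0.0681 (Plk4) to 0.228 (Ccnb1). Without ethanol 72 h replicate 2, 12 of the 40 fell and 2 rose. In the authors' deposited table for 72 h, 25 of the 40 fell and 3 rose, where 15.5% and 16.5% of all its genes did, and the median change of the 40 was -0.23. Of the genes called there, 20 that fell and 3 that rose were called the same way by limma. Plk1, Cenpa, Cenpf, Nuf2 and Prc1 fell in the authors' deposited table only, and Cdc25b (fell) and Bub3 (rose) passed in limma only.

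Lists of markers and of other programs were read at both times. Over all genes tested, 7.88% rose and 4.47% fell at 48 h, and 20.1% rose and 18.5% fell at 72 h. Of 30 fibroblast markers 28 rose at 48 h (median change 0.51) and 29 at 72 h (median 1.06). Those of smallest p at 72 h were Acta2 (1.503 ± 0.06, SE) and Col1a1 (1.19 ± 0.05). Of 23 stem cell markers 2 fell at 48 h (median -0.03) and 14 at 72 h (median -0.33), among them Fbxo15 (-0.65 ± 0.07) and Klf2 (-0.56 ± 0.06). In such bulk RNA, fewer cells of a type and less RNA per cell cannot be told apart, and the part of these shifts in the changes of the mitosis genes was not tested. Of 24 p53 targets 19 rose at 48 h and 21 at 72 h (median 0.72). Cdkn1a, the inhibitor of cyclin-dependent kinases, rose from 35.8 to 68.7 mean FPKM at 48 h and from 48.6 to 122 at 72 h. Its log2 change at 72 h was 1.31 ± 0.06 (limma, adjusted p = 4.12e-07). At 72 h Mdm2, the ligase that limits p53, rose by 2.00 ± 0.06 and Plk2 by 1.58 ± 0.07. Of 33 DNA replication genes 4 fell at 48 h and 19 at 72 h (median -0.22), with Pola1, a polymerase subunit, at -0.47 ± 0.07 and Chaf1b, a histone chaperone subunit, at -0.34 ± 0.05. Foxm1, the transcription factor best known for driving late cell cycle genes, was at 15.9 and 14.7 FPKM in ethanol and 14.9 and 17.03 in tamoxifen at 48 h, and at 19.7 and 18.5 against 20.7 and 19.5 at 72 h. Its change did not pass at either time (0.06, adjusted p = 0.68, and 0.07, adjusted p = 0.487).

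Among the regulators of entry, the B-type and A-type cyclins and their kinase passed as falls at 72 h and did not pass at 48 h. Cdk1 (mm9, chr10:68799383-68815660), the kinase that drives entry, was at 62.1 and 60.3 FPKM in ethanol and 62.3 and 57.1 in tamoxifen at 48 h, and at 70.3 and 74.2 against 54.1 and 62.0 at 72 h. The groups overlapped at 48 h (log2 change -0.04 ± 0.07, adjusted p = 0.787) and parted at 72 h (-0.31 ± 0.07, adjusted p = 0.00665). Ccnb1 (chr13:101548694-101556441), its main cyclin partner, was at 191 and 196 FPKM in ethanol and 192 and 185 in tamoxifen at 48 h, and at 202 and 212 against 173 and 192 at 72 h. It fell at 72 h (-0.18 ± 0.06, adjusted p = 0.0403) after -0.04 at 48 h. That call was lost without a filter, without a trend and with the libraries of 72 h alone. The difference of its changes between the times did not pass (limma, adjusted p = 0.387). Ccnb2 (chr9:70255496-70269361), the second B-type cyclin, was at 56.1 and 53.7 FPKM in ethanol and 54.1 and 52.9 in tamoxifen at 48 h, and at 80.3 and 86.4 against 61.3 and 65.3 at 72 h. At 72 h both tamoxifen libraries were well below both ethanol libraries (-0.39 ± 0.06, adjusted p = 0.000664), and at 48 h the change was -0.04 ± 0.06 (adjusted p = 0.727). Ccna2, the cyclin of S phase and early mitosis, ran from 86.2 to 107 FPKM over the 8 libraries and fell by 0.26 at 72 h (adjusted p = 0.00316).

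Ccnf went the other way. The gene (chr17:24360177-24388354) encodes cyclin F, the substrate receptor of a ubiquitin ligase that does not partner a kinase. It was at 56.6 and 60.2 FPKM in ethanol and 72.9 and 71.4 in tamoxifen at 48 h, and at 73.4 and 67.5 against 90.0 and 83.6 at 72 h. The tamoxifen libraries lay above the ethanol libraries at both times, with the same log2 change of 0.30 ± 0.06 at 48 h (adjusted p = 0.0128) and at 72 h (adjusted p = 0.00428). In the authors' deposited table its log2 changes were 0.26 and 0.31.

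The phosphatases Cdc25b and Cdc25c fell at 72 h, and Cdc25c had fallen at 48 h. Their relative Cdc25a, read with the other mitosis genes below, did not pass at 48 h (limma, -0.04 ± 0.06, adjusted p = 0.71). It did not pass at 72 h either (0.01 ± 0.06, adjusted p = 0.937). Cdc25c was at 9.62 and 9.86 FPKM in ethanol and 6.73 and 7.28 in tamoxifen at 48 h, and at 15.0 and 14.4 against 10.4 and 12.2 at 72 h. The groups did not overlap at either time, and the gene fell at both (-0.42 ± 0.08, adjusted p = 0.0101, and -0.36 ± 0.08, adjusted p = 0.00714). Cdc25b was at 8.21 and 7.71 FPKM in ethanol and 9.44 and 8.03 in tamoxifen at 48 h, and at 12.6 and 12.2 against 10.7 and 9.66 at 72 h. It overlapped at 48 h (0.12 ± 0.09, adjusted p = 0.429) and fell at 72 h (-0.27 ± 0.09, adjusted p = 0.0364).

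Of the entry kinases, Aurka and Plk4 fell at 72 h, and Plk1 and Nek2 did not pass. Plk1 (chr7:129302951-129313389), the Polo kinase of entry and bipolar spindles, was at 74.4 and 80.8 FPKM in ethanol and 68.6 and 75.5 in tamoxifen at 48 h, and at 91.3 and 86.4 against 83.2 and 73.9 at 72 h. Its 72 h libraries did not overlap, yet the change did not pass (-0.18 ± 0.07, adjusted p = 0.0822), nor did that at 48 h (-0.11, adjusted p = 0.388). Aurka (chr2:172181696-172196006), the kinase of spindle poles, was at 56.5 and 56.8 FPKM in ethanol and 49.4 and 53.5 in tamoxifen at 48 h, and at 73.8 and 71.6 against 62.6 and 57.9 at 72 h. Tamoxifen was the lower group at both times, by 0.14 at 48 h, which did not pass (adjusted p = 0.174), and with a fall at 72 h (-0.27 ± 0.06, adjusted p = 0.00606). Plk4, which starts centriole duplication, ran from 19.0 to 23.4 FPKM and fell by 0.24 at 72 h. Nek2, a centrosome kinase, ran from 28.4 to 32.8 FPKM with a change of -0.02 at 72 h (adjusted p = 0.835).

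The spindle checkpoint genes divided. Bub1 (chr2:127625936-127657595), the kinase that recruits checkpoint proteins to kinetochores, was at 38.8 and 38.4 FPKM in ethanol and 31.8 and 27.9 in tamoxifen at 48 h, and at 43.3 and 45.8 against 25.4 and 26.5 at 72 h. It fell at both times (-0.36 ± 0.07, adjusted p = 0.00847, and -0.76 ± 0.07, adjusted p = 2.61e-05), and its tamoxifen mean at 72 h was 58.3% of the ethanol mean, the lowest share among the 40. Ttk (chr9:83728296-83765997), the kinase at the top of the checkpoint, was at 23.4 and 24.3 FPKM in ethanol and 22.1 and 20.1 in tamoxifen at 48 h, and at 26.1 and 28.3 against 19.3 and 20.5 at 72 h. The groups were apart at both times, and the gene passed at 72 h (-0.43 ± 0.07, adjusted p = 0.000978) and not at 48 h (-0.17, adjusted p = 0.141). Mad2l1, the effector that binds Cdc20, was at 61.6 and 68.1 FPKM in ethanol and 62.3 and 61.1 in tamoxifen at 48 h, and at 62.5 and 61.5 against 48.38 and 54.97 at 72 h. It fell at 72 h (-0.26 ± 0.07, adjusted p = 0.0145).

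The close relatives and partners of Bub1 did not fall. Bub1b (chr2:118423947-118467328), which encodes BubR1 of the checkpoint complex, was at 59.95 and 60.56 FPKM in ethanol and 59.3 and 58.7 in tamoxifen at 48 h, and at 72.6 and 67.1 against 76.4 and 76.9 at 72 h. Its 72 h tamoxifen libraries were the higher ones, with a change that did not pass (0.13 ± 0.05, adjusted p = 0.0762). Bub3, the adaptor that brings both to the kinetochore, was at 70.9 and 70.8 FPKM in ethanol and 74.1 and 68.8 in tamoxifen at 48 h, and at 57.4 and 59.6 against 63.4 and 68.4 at 72 h. It rose at 72 h (0.17 ± 0.06, adjusted p = 0.0472), a call that was lost under 10 of the 16 alternatives.

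Neither gene of the anaphase-promoting step fell. Cdc20 (chr4:118105506-118109948), the activator of the complex, was at 170.4 and 168 FPKM in ethanol and 168 and 167 in tamoxifen at 48 h, and at 142 and 137 against 166 and 162 at 72 h. The groups overlapped at 48 h (-0.01 ± 0.05, adjusted p = 0.885), and at 72 h tamoxifen was higher (0.23 ± 0.05, adjusted p = 0.0042), beside an ethanol level lower than that of 48 h. Ube2c (chr2:164595429-164598402) was at 219.5 and 208 FPKM in ethanol and 198 and 197 in tamoxifen at 48 h, and at 189 and 169 against 157 and 178 at 72 h. Its libraries overlapped at 72 h, and no change passed (-0.11, adjusted p = 0.35, and -0.10, adjusted p = 0.316).

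Among the 7 kinetochore genes, 1 fell at 72 h by limma (14.3%, against 18.5% of all genes tested) and the other 6 did not pass. In the authors' deposited table Spc25, Cenpa, Cenpf and Nuf2 fell at 72 h, where 15.5% of all its genes did. Cenpa (chr5:30969275-30977199), the histone that marks centromeres, was at 70.6 and 73.1 FPKM in ethanol and 80.1 and 69.2 in tamoxifen at 48 h, and at 106 and 102 against 88.9 and 96.7 at 72 h. The change at 72 h was -0.17 ± 0.07 and did not pass (adjusted p = 0.0904). Cenpe (chr3:134875527-134936504), the kinetochore motor that carries chromosomes to the spindle equator, was at 23.2 and 22.1 FPKM in ethanol and 23.6 and 23.8 in tamoxifen at 48 h, and at 25.2 and 26.0 against 26.5 and 24.9 at 72 h. Its libraries overlapped at 72 h (0.01 ± 0.06, adjusted p = 0.943). Ndc80 (chr17:71845440-71876197), which gives its name to the complex that binds microtubules, was at 21.41 and 20.04 FPKM in ethanol and 19.85 and 18.29 in tamoxifen at 48 h, and at 19.99 and 21.88 against 18.4 and 21.1 at 72 h. It too overlapped at 72 h (-0.08 ± 0.08, adjusted p = 0.445). Of the other subunits of that complex, Spc25 fell at 72 h (-0.27, adjusted p = 0.0348, range 37.1 to 49.7 FPKM over the 8 libraries), while Nuf2 (-0.09, adjusted p = 0.481) and Spc24 (0.05, adjusted p = 0.601) did not pass. Cenpf, a large protein of the outer kinetochore, was at -0.15 (adjusted p = 0.0853).

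The chromosomal passengers, which correct faulty attachments and later act at the midzone, did not move together. Aurkb (chr11:68859145-68865164), the kinase of the complex, was at 36.5 and 32.4 FPKM in ethanol and 28.6 and 27.6 in tamoxifen at 48 h, and at 42.4 and 41.7 against 29.6 and 31.2 at 72 h. It fell at both times (-0.28 ± 0.07, adjusted p = 0.0201, and -0.46 ± 0.07, adjusted p = 0.000526). Birc5 (survivin), which targets the complex to centromeres, was at 89.9 and 86.4 FPKM in ethanol and 67.8 and 71.2 in tamoxifen at 48 h, and at 66.8 and 71.0 against 58.3 and 64.9 at 72 h. It fell at 48 h (-0.34 ± 0.07, adjusted p = 0.00887) and did not pass at 72 h (-0.16 ± 0.07, adjusted p = 0.0749), when the ethanol level was also lower than at 48 h. Incenp, the scaffold that holds the complex, was at 54.0 and 52.6 FPKM in ethanol and 58.6 and 61.9 in tamoxifen at 48 h, and at 58.0 and 55.6 against 66.5 and 64.4 at 72 h. Tamoxifen was the higher group at both times, and the gene rose at 72 h (0.20 ± 0.05, adjusted p = 0.0156) after 0.17 at 48 h (adjusted p = 0.0668).

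Of the spindle motors and their partners, Kif11, Kif2c and Kif18a fell at 72 h, and Kif4 and Tpx2 did not pass. Kif11 (chr19:37450893-37496349), the motor that pushes the poles apart, was at 50.5 and 52.0 FPKM in ethanol and 50.7 and 48.9 in tamoxifen at 48 h, and at 51.1 and 55.5 against 42.9 and 43.8 at 72 h. It overlapped at 48 h (-0.04, adjusted p = 0.688) and fell at 72 h (-0.29 ± 0.06, adjusted p = 0.00327). Kif2c, a depolymerase that frees faulty attachments, ran from 30.9 to 39.0 FPKM and fell by 0.24 at 72 h, and Kif18a, which damps chromosome movement, ran from 15.1 to 19.4 FPKM and fell by 0.23. Tpx2 (chr2:152673700-152721057), which nucleates microtubules and activates Aurora A, was at 51.4 and 54.7 FPKM in ethanol and 55.9 and 54.8 in tamoxifen at 48 h, and at 60.9 and 64.2 against 57.8 and 63.4 at 72 h. Its 72 h libraries overlapped (-0.05 ± 0.06, adjusted p = 0.583). Kif4, the chromosome-arm motor, was at 10.9 and 10.9 FPKM in ethanol and 10.3 and 11.2 in tamoxifen at 48 h, and at 13.9 and 15.2 against 14.8 and 14.2 at 72 h, with overlap at both times (-0.01 at 72 h, adjusted p = 0.961).

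In the central spindle, Ect2, Kif23, Anln and Kif20a fell at 72 h. Ect2 (chr3:26996144-27052800), which activates RhoA for the cleavage furrow, was at 62.5 and 59.3 FPKM in ethanol and 52.5 and 52.0 in tamoxifen at 48 h, and at 66.2 and 66.5 against 48.4 and 49.6 at 72 h. It fell at both times (-0.22 ± 0.05, adjusted p = 0.0236, and -0.43 ± 0.05, adjusted p = 0.000169). Kif23 (chr9:61765085-61794606), the motor of the centralspindlin complex, was at 29.1 and 28.3 FPKM in ethanol and 23.2 and 23.4 in tamoxifen at 48 h, and at 25.8 and 26.4 against 19.4 and 20.7 at 72 h. It also fell at both times (-0.29 ± 0.06, adjusted p = 0.0118, and -0.37 ± 0.06, adjusted p = 0.000926). Its partner in centralspindlin, Racgap1, did not pass at 72 h (-0.07, adjusted p = 0.363, range 36.9 to 42.6 FPKM). Kif20a, which brings passengers to the midzone, was at 66.1 and 68.2 FPKM in ethanol and 60.4 and 61.8 in tamoxifen at 48 h, and at 58.1 and 55.3 against 49.6 and 50.3 at 72 h, and fell at 72 h (-0.18 ± 0.05, adjusted p = 0.0215). Anln, the furrow protein anillin, ran from 35.9 to 48.4 FPKM and fell by 0.21 at 72 h. Prc1, which bundles the midzone microtubules, was at 44.8 and 41.6 FPKM in ethanol and 38.6 and 39.9 in tamoxifen at 48 h, and at 60.6 and 60.4 against 54.4 and 58.5 at 72 h, and did not pass at either time (-0.14, adjusted p = 0.174, and -0.10, adjusted p = 0.222).

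Top2a (chr11:98854261-98885503), the topoisomerase that untangles sister chromatids and helps to shape mitotic chromosomes, was at 173 and 176 FPKM in ethanol and 154 and 153 in tamoxifen at 48 h, and at 189.8 and 203 against 143 and 147 at 72 h. The groups were apart at both times. Top2a fell by 0.18 at 48 h (adjusted p = 0.0461) and by 0.43 at 72 h (SE 0.05, adjusted p = 0.000159), and in the authors' deposited table its change at 72 h was -0.54.

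The promoter elements were found in genes of each kind of response. Of the 17 genes with a promoter here that fell at 72 h, 11 held a CHR match and 9 held both elements. Of the 13 not called, 9 held a CHR match and 8 both, and all 3 that rose with a promoter here (Bub3, Ccnf and Cdc20) held both. Among the promoters printed, those of Cdk1, Aurka, Kif11 and Kif23 belong to genes that fell, that of Cdc20 to one that rose, and those of Plk1, Bub1b and Cenpa to genes not called.

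A separate list of 112 other mitosis genes was read beside the 40. At 48 h 9 fell (8.04%) and 4 rose (3.57%), where 4.47% and 7.88% of all genes tested did. At 72 h 40 fell (35.7%) and 8 rose (7.14%), against 18.5% and 20.1% of all genes tested, with a median change of -0.14. By kind, 12 of 30 other kinetochore genes (40%), 9 of 27 other spindle genes (33.3%) and 8 of 23 condensin and cohesin genes (34.8%) fell at 72 h. Of 17 further regulators of entry 4 fell (23.5%), a share near that of all genes tested. Among 15 genes of the anaphase-promoting complex and its regulators 7 fell (46.7%): the subunits Anapc1, Anapc4, Cdc16, Cdc23 and Cdc27, the inhibitor Fbxo5 and the conjugating enzyme Ube2s, which were named after their values were seen. The 2 genes of smallest p at 72 h both rose. Gtse1, a G2 and S phase protein that is also a p53 target, was at 53.6 and 51.7 FPKM in ethanol and 69.3 and 70.5 in tamoxifen at 48 h, and at 64.5 and 65.9 against 97.2 and 97.5 at 72 h (0.57 ± 0.05, adjusted p = 2.14e-05). Kifc1, the minus-end motor that clusters poles, was at 41.2 and 41.1 FPKM in ethanol and 52.7 and 52.8 in tamoxifen at 48 h, and at 48.4 and 49.3 against 71.9 and 74.4 at 72 h (0.57 ± 0.05, adjusted p = 2.2e-05).

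**Figure D4:**
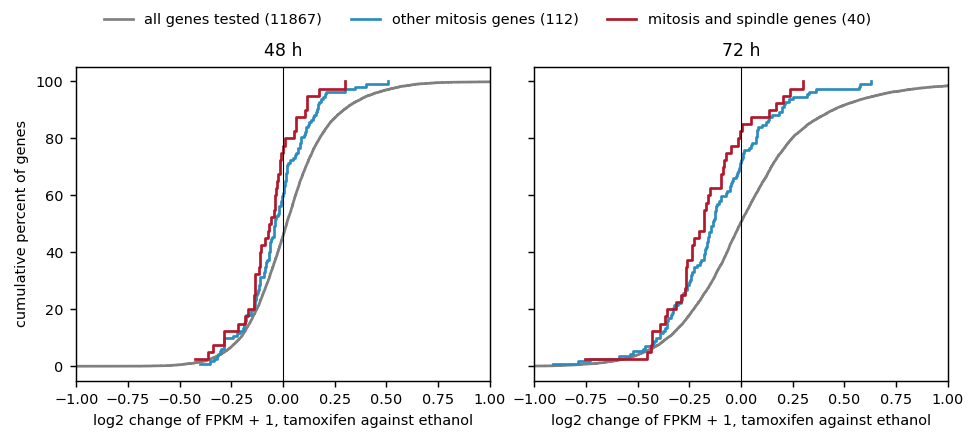
Cumulative percent of genes by log2 change of FPKM + 1, tamoxifen against ethanol, at 48 h (left) and 72 h (right), for all 11867 genes tested, 112 other mitosis genes and the 40 mitosis and spindle genes; the axis ends at 1 log2 unit in either direction. At 72 h the medians are -0.01, -0.14 and -0.18.

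The change at 72 h minus that at 48 h was tested for every gene, and little of the later fall passed that test. Of the 40, 1 gene had a more negative change at 72 h and none a more positive one, where 1.45% and 2% of all genes tested passed. The gene was Ccnb2, with a difference of -0.35 ± 0.08 (limma, adjusted p = 0.0494), and the call was lost under 12 of 15 alternatives (adjusted p up to 0.167), including the removal of any 1 of the 8 libraries. Unadjusted p was under 0.05 for 11 of the 40, of which 1 was a more positive change. No share over all genes tested is set beside that count. The median difference was -0.11, against -0.01 over all genes tested. The difference was negative in 29 of the 40 and in 6160 of the 11867 genes tested. For Bub1 it was -0.39 ± 0.10 (adjusted p = 0.055) and for Cdk1 -0.28 ± 0.10 (adjusted p = 0.158), so neither is shown to have changed more at 72 h than at 48 h. The difference of Bub1 did pass under 3 of 15 alternatives, among them a pseudocount of 5 and quantile normalization. Ccnb2 and Bub1 thus lay close to the threshold on either side, and the test does not set them apart.

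In ethanol 31 of the 40 mitosis genes had a positive change from 48 h to 72 h, as did 7303 of the 11867 genes tested. By limma 22 of the 40 rose (55%) and 6 fell (15%) between the ethanol groups, against 38% and 19.2% of all genes tested, with a median of 0.17 against 0.11. Ccnb2 rose by 0.59 ± 0.06 (adjusted p = 2.34e-05), Cdc25b by 0.58 ± 0.09, Cdc25c by 0.55 ± 0.08, Cenpa by 0.53 ± 0.07 and Prc1 by 0.48 ± 0.06. The largest falls were those of Spc24 (-0.37 ± 0.07, adjusted p = 0.000992), which was at 50.01 and 47.51 FPKM at 48 h and 38.4 and 36.6 at 72 h, and of Birc5 (-0.35), Cdc20 (-0.28), Bub3 (-0.27) and Ube2c (-0.26). Scaling by median ratios moved the median of all genes by -0.11 in this comparison, and 9 of the 40 then rose and 8 fell. Under quantile normalization, which moved it by -0.12, 22 rose and 6 fell. The shares of all genes called under these scalings are not set beside these counts. Under each of 15 alternatives Anln, Aurka, Ccnb2, Cdc25b, Cdc25c, Cenpa, Cenpf, Kif4 and Prc1 rose, and Birc5, Bub3, Cdc20, Kif20a and Spc24 fell. Leaving out 1 library mattered: 12 rose without ethanol 48 h replicate 1, 14 without ethanol 48 h replicate 2 and 13 without ethanol 72 h replicate 2.

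In tamoxifen the same interval gave as many falls as rises. Of the 40, 9 rose and 9 fell (22.5% each), against 37.5% and 19.6% of all genes tested, with a median of -0.01 against 0.12. Cdc25c (0.62 ± 0.08, adjusted p = 0.000173), Prc1 (0.51), Kif4 (0.40), Bub1b (0.37) and Cenpa (0.31) rose the most. Kif20a (-0.29 ± 0.05, adjusted p = 0.00111), Mad2l1 (-0.25), Ube2c (-0.24), Kif23 (-0.21) and Kif11 (-0.20) fell the most. In tamoxifen Spc24 was at 45.9 and 42.4 FPKM at 48 h and 36.9 and 40.8 at 72 h. With median-ratio scaling, which moved the median of all genes by -0.10, 5 of the 40 rose and 17 fell. With quantile normalization, which moved it by -0.12, 10 rose and 6 fell. Shares of all genes called under these scalings are not given here. The 9 falls became 1 without tamoxifen 72 h replicate 1, 2 without tamoxifen 48 h replicate 1, and 5 without either ethanol 48 h library. Bub1b, Cdc25c, Cenpa, Kif4 and Prc1 rose and Kif20a fell under each of the 15 alternatives.

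The intervals in ethanol and in tamoxifen share libraries with the comparisons at each time, and values are set side by side here. Ccnb2 rose in both arms, by 0.59 in ethanol and by 0.24 in tamoxifen. Bub1 rose by 0.20 in ethanol (adjusted p = 0.0277) and fell by 0.19 in tamoxifen (adjusted p = 0.0358), calls that were lost under 5 and 8 of 15 alternatives, with adjusted p up to 0.352 and 0.292. Top2a rose by 0.17 in ethanol (adjusted p = 0.0185) and was at -0.08 in tamoxifen (adjusted p = 0.198). Over the same interval 37.5% of all genes tested rose and 19.6% fell in tamoxifen, and 38% rose and 19.2% fell in ethanol. Of 30 fibroblast markers 24 rose in tamoxifen (median 0.44), and in ethanol 6 rose and 8 fell (median 0.03). Of 23 stem cell markers 15 fell and 5 rose in tamoxifen (median -0.44), and 11 fell and 7 rose in ethanol (median -0.14). Of 24 p53 targets 22 rose in tamoxifen (median 0.63) and 17 rose and 1 fell in ethanol (median 0.39). The part of these lists in the interval changes of the mitosis genes was not tested.

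**Figure D5:**
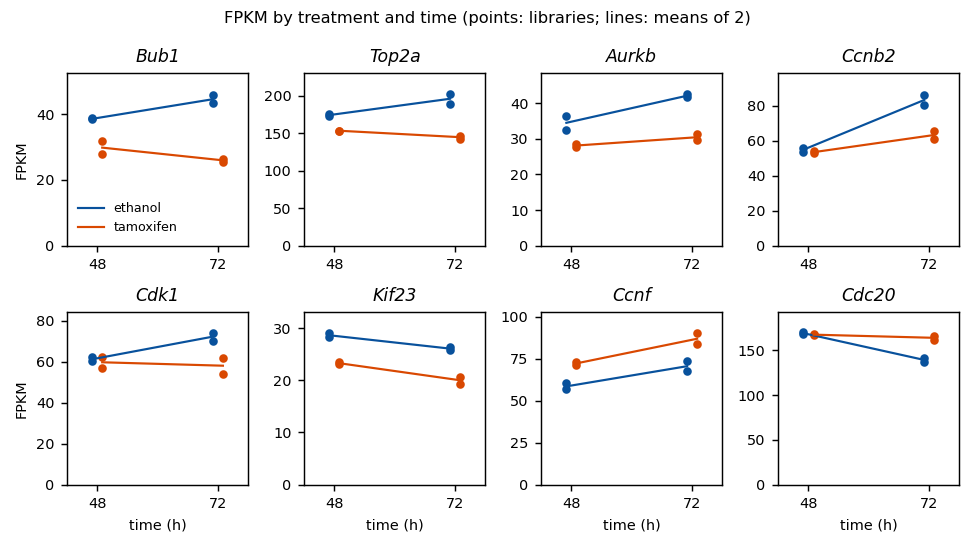
FPKM at 48 h and 72 h in ethanol (blue) and tamoxifen (orange) for 8 genes, with points for libraries and lines joining the means of 2 libraries; every axis starts at 0. Ccnb2 goes from 54.9 to 83.3 mean FPKM in ethanol and from 53.5 to 63.3 in tamoxifen, while Cdc20 goes from 169 to 139 in ethanol and from 168 to 164 in tamoxifen.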

How the data were processed

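RNA enriched for poly(A) was sequenced as paired ends of 100 bases, per the labels' protocols. The authors deposited 1 table per library with FPKM for each gene and its confidence bounds, in mm9 coordinates, and 2 tables of their own comparisons. In these, per the file headers, group means are a signal, namely counts over size factors, with a fold ratio, its log2 value and p-values of the authors; the sign was turned here to tamoxifen over ethanol after a check against the means. Cufflinks 1.3.0, DESeq, HTSeq, TopHat 1.4.1 and BWA 0.6.1 are named, without roles, per the submitters' processing notes.

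Groups came from the labels (4 groups of 2). Of 20789 entries, 209 with a status other than OK were dropped, and the entry of highest mean FPKM stood for its identifier (20388 in all). The 11867 genes with at least 1 FPKM in at least 2 of 8 libraries entered one limma fit (R 4.3.3, limma 3.58.1) of log2(FPKM + 1) with group means, 4 residual degrees of freedom and a mean trend. Fold changes on this scale understate the change of low genes. P-values were 2-sided and adjusted (Benjamini-Hochberg) across the 11867 genes, called under 0.05, for 5 contrasts. The script was tested on simulated data. Fragments were taken from the confidence bounds as 2 SD of a Poisson count and cover counting error only. Squared differences within groups were 1.58 to 2.51 times the counting variance, so the libraries of a group differed by more than sampling noise.

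The members and the lists of other genes were chosen with earlier results of these data known. Values in every library were given for 16 core genes and for the 5 called members of largest change in each direction of each contrast. From each other list the 2 called genes of smallest p at 72 h were named, and Htatsf1, Cdkn1a and Foxm1 were added by name. Of the 2 genes from each list, only those of the other mitosis genes were given in every library, and the rest by their change. Alternatives were pseudocounts of 0.1 and 5, no filter, median-ratio and quantile scaling, no trend, a replicate block, the libraries of 1 time alone and leaving out each library. Starts in the files count from 0, and 1 was added. Promoters are those of RefSeq, and for genes with 2 listed starts the upper entry of the table was used. The labels give no batch; a number in the names of the deposited tables, of unknown meaning, differs between times and not between treatments, so it and time cannot be told apart.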

Additional observations from a re-analysis of the deposited data

Results flagged for a closer look

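The change of Ccnb2 with tamoxifen passed as different between the times, by a test of the difference itself under the main settings. It was -0.04 at 48 h and -0.39 at 72 h, a difference of -0.35 log2 units with an adjusted p of 0.0494 by limma. All 8 libraries are needed for the call, which passed under only 3 of 15 alternatives. Bub1 had a difference of -0.39 that fell just short by the same test (adjusted p = 0.055). For Ccnb2, other values were as follows. The ethanol level of Ccnb2 rose from 54.9 to 83.3 mean FPKM over the interval and its tamoxifen level from 53.5 to 63.3. Fibroblast markers summed to 1997 to 2135 FPKM in tamoxifen at 72 h and to 1474 to 1501 at 48 h, and their part in the difference of Ccnb2 was not tested.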

How the results depend on the processing

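At 48 h, leaving out 1 library gave 0 to 7 members that fell (7 with all) and 0 to 1 that rose (1), and 121 to 622 genes in all that fell (531) and 319 to 961 that rose (935). Without a filter 308 genes fell, and with median-ratio scaling the members' median was -0.095. At 72 h, 12 to 20 members fell (21) and 2 to 4 rose (4), 1460 to 2172 genes fell and 1800 to 2334 rose, and the members' median was -0.212 to -0.168. For the difference, 0 to 1 members fell (1), 37 to 160 genes rose (237) and 13 to 100 fell (172), with a median of -0.13 to -0.085. There 0 members passed with a pseudocount of 0.1, without a filter or without a trend, 2 with a pseudocount of 5 and 3 with quantile normalization. Without a filter 31 genes rose and 13 fell, and without a trend 148 and 78. In ethanol over time 12 to 22 members rose (22), with a median of 0.138 to 0.169, and median-ratio scaling gave 9 and 0.042. In tamoxifen over time 1 to 9 members fell (9), with a median of -0.061 to 0.056. That median reversed to 0.056 without tamoxifen 48 h replicate 1, to 0.037 without tamoxifen 72 h replicate 1 and to 0.031 with quantile normalization. Median-ratio scaling gave 5 that rose, 17 that fell and -0.129, and 5 fell without a trend. The causes were not tested. No call of a member reversed its sign, and 48 of 200 member results changed sign while not called in either setting.

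Replicate numbers showed no clear pairing of the libraries, as deviations of same-numbered libraries correlated at -0.28 to 0.15. These values cannot show that the libraries were unpaired. With the replicate block 21 members fell at 72 h, 0 passed for the difference (Ccnb2 lost) and 108 genes in all fell for it.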
